A study of Mus musculus with 6 samples.

Results

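The Wnt genes described here are the secreted Wnt ligands, the receptors that bind them, and the secreted and intracellular proteins that set how strongly a cell responds. They were selected by a rule on gene symbols, written with earlier results of these data known, and number 56 of the 23337 symbols in the count tables. By role there are 19 Wnt ligands, 8 Frizzled receptors, 5 other Wnt receptors, 8 genes of the R-spondin arm, 10 secreted antagonists, 2 Axin scaffolds and 4 TCF/LEF transcription factors. RNA was sequenced from outer hair cells, which amplify sound in the cochlea, after sorting on an Insm1-GFP-Cre signal from mouse cochleae at E18.5. The 3 Insm1-KO libraries came from animals labelled as knockouts of Insm1, a zinc-finger transcription factor of nascent outer hair cells, and the 3 Insm1-Het libraries from heterozygous animals. Cells of both genotypes were sorted on the same Insm1-GFP-Cre signal, so the heterozygous control also carries the modified allele and no library is labelled wild type. The labels give neither the part of Insm1 that is removed nor whether animals were pooled, and p-values therefore measure only the spread between these libraries, which may be technical.

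Wnt ligands are lipid-modified secreted proteins that bind Frizzled receptors. Together with the co-receptors Lrp5 and Lrp6 they keep beta-catenin from being degraded, and beta-catenin then activates target genes with TCF/LEF factors on DNA. With Ror or Ryk receptors they act without beta-catenin, and a related set of polarity genes orients the hair bundles of the cochlea. Wnt signalling through beta-catenin is also known for its part in the division of cochlear progenitors and in the formation of hair cells.

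Libraries held 7705177 to 9748629 counts in Insm1-KO and 10721902 to 12427039 counts in Insm1-Het. Insm1 was at 78.5, 60.1 and 18.7 CPM (counts relative to the TMM-scaled library size) in the Insm1-KO libraries and at 109.0, 115.9 and 69.1 CPM in the Insm1-Het libraries, and the genotypes overlapped (log2 fold change -0.90, SE 0.50). The log2 fold change was -0.49 without Insm1-KO replicate 3 and -1.32 without Insm1-KO replicate 1. Because the removed part is not given, this level is only a partial check of the labels. Insm1-KO replicate 3 stood apart, with correlations of log2 CPM from 0.746 to 0.780 with the other 5 libraries, against 0.787 to 0.841 among those 5. All 10 genes of the outer hair cell list were counted in every library, with summed levels of 7157 to 8057 CPM in Insm1-KO and 7164 to 7386 CPM in Insm1-Het. Most of each sum came from Myo6 (4836 to 5196 CPM). Without overlap of the genotypes, Atoh1 was higher in Insm1-KO, and Gfi1 and Lhx3 were lower. These are 1 and 2 of 10, against 5.08% and 6.1% of all tested genes, and 0 passed the test below. No inner hair cell list was read, so these sums do not tell outer from inner hair cells. Markers of other cell types were counted too. The supporting cell list (9 of 10 genes tested) summed to 1444 to 2051 CPM in Insm1-KO and 1282 to 1580 CPM in Insm1-Het, and the epithelial ridge list (6 of 7) to 1273 to 2306 CPM in Insm1-KO and 1096 to 2297 CPM in Insm1-Het. For neurons (5 of 8, among them Gata3 and Isl1, which hair cells also express) the sums were 1280 to 1939 CPM in Insm1-KO and 1222 to 1348 CPM in Insm1-Het. Mesenchyme markers (4 of 9) summed to 224 to 334 CPM in Insm1-KO and 238 to 430.3 CPM in Insm1-Het. Most of each of these sums came from Pdgfra (174.8 to 348.2 CPM), and Twist1 was at 0 in all libraries. Glial markers (4 of 6) summed to 61.5 to 113 CPM in Insm1-KO and 52.6 to 125 CPM in Insm1-Het, with Foxd3 at 0. Sums of the leukocyte list (1 of 6) were 37.5 to 135.6 CPM in Insm1-KO and 86.2 to 122.5 CPM in Insm1-Het, nearly all from Laptm5, while Ptprc, Tyrobp, C1qa, C1qb and Cd52 were each at 0 in at least 4 libraries and reached at most 2.13 CPM. Sums of the endothelial list (2 of 5) were 7.45 to 29.97 CPM in Insm1-KO and 6.58 to 25.7 CPM in Insm1-Het. The part of these cell types in the levels below was not tested.

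Of the 56 Wnt genes, 27 had enough counts to be tested, and 0 of them differed between Insm1-KO and Insm1-Het cells in edgeR's quasi-likelihood fit after Benjamini-Hochberg adjustment over all 11714 tested genes. Over all genes the share past this threshold was 0.0%. At an unadjusted p under 0.05 there were 2 Wnt genes, Dkk3 and Tcf7l2, both higher in Insm1-KO, or 7.41% of those tested against 5.34% of all genes. Of all genes 3.19% were higher and 2.15% lower at that level. DESeq2 passed 0 of the Wnt genes and 0.222% of all genes, and limma-voom passed 0 of the Wnt genes. The 3 Insm1-KO libraries lay above all 3 Insm1-Het libraries for 1 Wnt gene, Dkk3 (3.7%, against 5.08% of all tested genes), and below them for 2, Lgr4 and Wnt7b (7.41%, against 6.1%). These counts of 1 and 2 genes were near the background. The median log2 fold change was 0.09 over the 27 Wnt genes and 0.02 over all tested genes, and 16 Wnt genes had a positive and 11 a negative value, against 50.9% and 49.1% of all tested genes. In sorted cells measured in bulk, fewer cells of a type and less RNA per cell cannot be told apart.

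**Figure D1:**
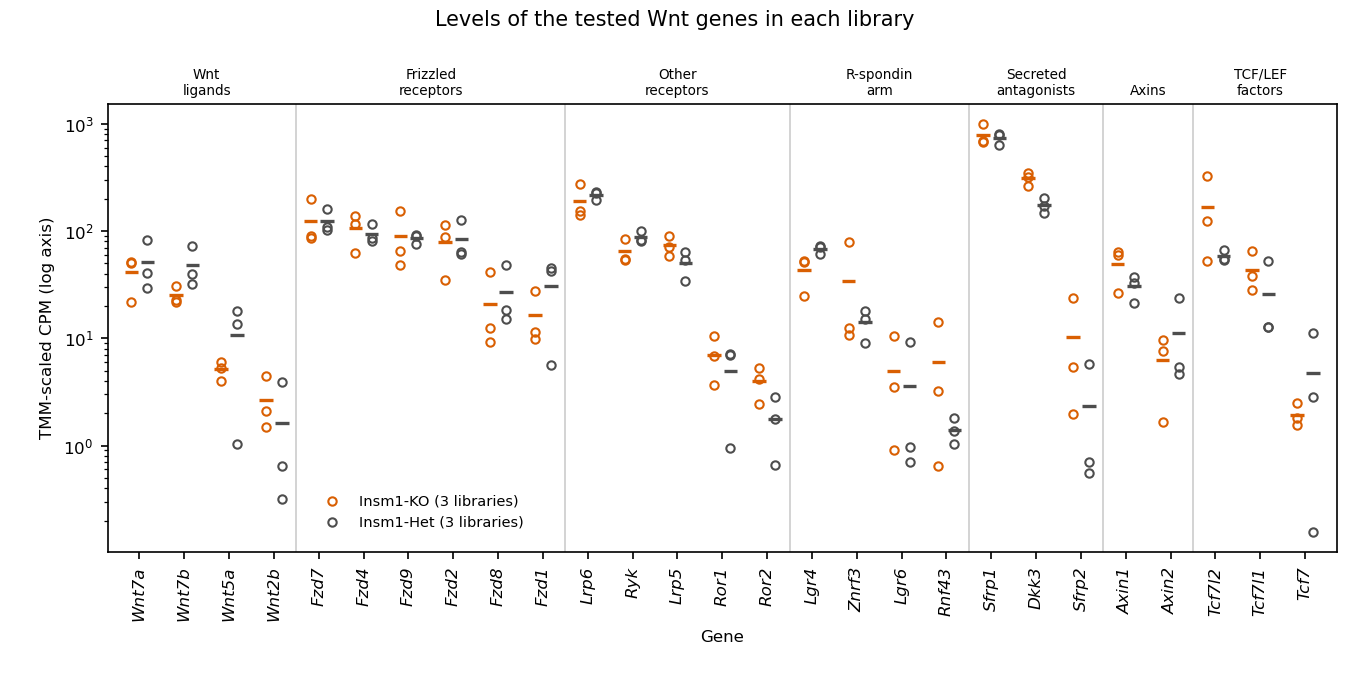
TMM-scaled CPM of the 27 tested Wnt genes on a log axis, grouped by role, with 1 open circle per library and a bar for the mean, Insm1-KO in orange and Insm1-Het in grey. The 3 Insm1-KO circles of Dkk3 lie above all Insm1-Het circles, those of Lgr4 and Wnt7b lie below, and the genotypes overlap for the other 24 genes.

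Few Wnt ligands were counted in these cells. Wnt7a, Wnt7b, Wnt5a and Wnt2b were tested, and 10 of the 19 ligands had 0 counts in every library: Wnt1, Wnt2, Wnt3a, Wnt4, Wnt6, Wnt8a, Wnt8b, Wnt9b, Wnt10b and Wnt16. A count of 0 allows up to 3 counts, or 0.236 to 0.390 CPM depending on the library, and such limits cover counting error only, because amplified reads are not independent molecules. Wnt9a was counted in 2 libraries, with 0, 54 and 0 counts in Insm1-KO and 0, 0 and 96 in Insm1-Het. Wnt3, Wnt5b, Wnt10a and Wnt11 each had counts in 1 library, 26 at most. Summed over all 19 ligands, the level was 81.3, 98.7 and 51.1 CPM in Insm1-KO and 89.7, 160.6 and 95.4 CPM in Insm1-Het, so the sum overlapped between genotypes.

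Wnt7b (chromosome 15, 85535437 to 85582473 on GRCm38), a ligand that signals through beta-catenin in several epithelia, had 22.9, 30.7 and 22.0 CPM in Insm1-KO libraries, against 32.2, 72.6 and 40.04 CPM in Insm1-Het libraries. All Insm1-KO values lay below the Insm1-Het values, with the closest pair of libraries at 30.7 and 32.2 CPM. Means were 25.2 ± 4.79 CPM in Insm1-KO and 48.3 ± 21.4 CPM in Insm1-Het (SD, n = 3 each). The log2 fold change was -0.94 (SE 0.55) and did not pass (edgeR, adjusted p = 0.938). Without Insm1-Het replicate 2, the highest library, it was -0.52. Part of its exons overlaps AU022754 on the other strand, and because the strand setting is not given in the sources used here, reads of the overlap cannot be told apart.

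Wnt7a, the closest relative of Wnt7b, had 50.5, 51.9 and 21.6 CPM in Insm1-KO and 40.7, 83.04 and 29.6 CPM in Insm1-Het. Its genotypes overlapped, with a log2 fold change of -0.31 (SE 0.56) that became 0.01 without Insm1-KO replicate 3 and 0.23 without Insm1-Het replicate 2. Wnt5a, the main ligand of signalling without beta-catenin, was at 6.07, 4.03 and 5.33 CPM in Insm1-KO and at 13.5, 1.03 and 17.8 CPM in Insm1-Het. The Insm1-KO values were within 1.51-fold of each other and fell inside the Insm1-Het range, which spanned 17.3-fold; its exons also overlap a gene on the other strand, Gm2670. Wnt2b ranged from 0.315 to 4.42 CPM over the 6 libraries.

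Frizzled receptors, the main Wnt receptors, summed to 486.0, 383 and 445 CPM in Insm1-KO and 367, 522 and 453 CPM in Insm1-Het. Of the 8 described here, 6 were tested and 0 passed. Fzd7 had 200.6, 86.5 and 89.1 CPM in Insm1-KO and 102.3, 160.7 and 109.6 CPM in Insm1-Het. Insm1-KO replicate 1 was thus the highest and the other 2 the lowest, and the 95% interval around a log2 fold change of 0.01 was -0.80 to 0.83; its sign turned in 6 alternatives. Fzd4, a receptor that also binds Norrin and is known for the vessels of the cochlea, had 62.5, 138.5 and 116 CPM in Insm1-KO and 85.4, 116.6 and 80.1 CPM in Insm1-Het, with an interval from -0.64 to 0.98. Fzd9 had 65.1, 48.7 and 153.5 CPM in Insm1-KO and 92.8, 90.04 and 75.2 CPM in Insm1-Het. Its Insm1-Het values spanned 1.23-fold and its Insm1-KO values 3.15-fold, and the log2 fold change of 0.05 was -0.59 without Insm1-KO replicate 3.

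Fzd2 had 113, 88.7 and 34.9 CPM in Insm1-KO and 64.0, 61.6 and 127.7 CPM in Insm1-Het, a log2 fold change of -0.10 (SE 0.48). Fzd8 had 12.5, 9.24 and 41.5 CPM in Insm1-KO and 15.3, 47.9 and 18.4 CPM in Insm1-Het, a log2 fold change of -0.37 (SE 0.77) that was -1.31 without Insm1-KO replicate 3. For Fzd1 the values were 27.9, 11.5 and 9.77 CPM in Insm1-KO and 5.69, 44.9 and 42.1 CPM in Insm1-Het. Each of these receptors had at least 1 library of one genotype inside the range of the other. Fzd10 had 30, 0 and 0 counts in Insm1-KO and 7, 0 and 0 in Insm1-Het, and Fzd5 had 10, 0 and 0 in Insm1-KO and 16, 0 and 0 in Insm1-Het, so both fell below the filter.

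Among the other receptors, Lrp6, the co-receptor of the beta-catenin branch, was at 153, 140.6 and 274.7 CPM in Insm1-KO and at 193, 225.8 and 230.2 CPM in Insm1-Het. The interval of its log2 fold change, -0.19, ran from -0.84 to 0.45. Lrp5, its relative, had 59.0, 71.5 and 90.7 CPM in Insm1-KO and 34.3, 54.2 and 63.2 CPM in Insm1-Het. Only Insm1-KO replicate 1 lay inside the Insm1-Het range, and the log2 fold change of 0.54 (SE 0.43) did not pass (edgeR, adjusted p = 0.973). Ryk, a Wnt receptor with an inactive kinase domain, had 54.6, 84.8 and 54.3 CPM in Insm1-KO and 80.8, 100.0 and 83.2 CPM in Insm1-Het. Here only Insm1-KO replicate 2 reached the Insm1-Het range, and the log2 fold change was -0.45 (SE 0.38). Ror1 and Ror2, receptor tyrosine kinases that bind Wnt5a, ranged from 0.946 to 10.5 CPM and from 0.654 to 5.33 CPM over the 6 libraries, with log2 fold changes of 0.48 (SE 1.26) and 1.18 (SE 1.51).

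The R-spondin arm sets how many Frizzled receptors reach the cell surface: R-spondins bind Lgr receptors and take the ubiquitin ligases Znrf3 and Rnf43 away from Frizzled. Lgr4 (chromosome 2, 109917647 to 110014257 on GRCm38) had 51.8, 25.0 and 52.4 CPM in Insm1-KO libraries, against 70.4, 60.5 and 71.8 CPM in Insm1-Het libraries. All Insm1-KO values were lower, with means of 43.04 ± 15.7 CPM in Insm1-KO and 67.6 ± 6.15 CPM in Insm1-Het (SD, n = 3 each). Its log2 fold change of -0.65 (SE 0.46) did not pass (edgeR, adjusted p = 0.955), and it was -0.37 without Insm1-KO replicate 2, the lowest library. Znrf3 had 12.6, 10.7 and 78.6 CPM in Insm1-KO and 9.10, 18.1 and 15.1 CPM in Insm1-Het. The Insm1-KO mean rested on replicate 3: the log2 fold change of 1.27 (SE 0.83) was -0.27 without it.

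Rnf43 showed the same library at the top, with 0.639, 3.25 and 14.3 CPM in Insm1-KO and 1.38, 1.03 and 1.81 CPM in Insm1-Het, and its log2 fold change of 2.10 (SE 1.55) was 0.47 without Insm1-KO replicate 3. Lgr6 ranged from 0.709 to 10.5 CPM over the 6 libraries and was also highest in Insm1-KO replicate 3. The R-spondins themselves were nearly uncounted. Rspo1 and Rspo4 had 0 counts in all libraries, Rspo2 had 0, 1 and 0 counts in Insm1-KO and 1, 16 and 18 in Insm1-Het, and Rspo3 had 0, 0 and 1 counts in Insm1-KO and 0, 0 and 11 in Insm1-Het.

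The secreted antagonists held the 2 highest levels per exon length of all tested Wnt genes. Dkk3 (chromosome 7, 112116017 to 112159057 on GRCm38), a divergent member of the Dickkopf family of secreted Wnt modulators, had 321.7, 345.0 and 263.9 CPM in Insm1-KO libraries, against 146.2, 171.0 and 203.0 CPM in Insm1-Het libraries. Every Insm1-KO library was above every Insm1-Het library, and each genotype's values lay within 1.39-fold of each other. Means were 310.2 ± 41.7 CPM in Insm1-KO and 173 ± 28.5 CPM in Insm1-Het (SD, n = 3 each). The log2 fold change was 0.84 (SE 0.25, 95% interval 0.30 to 1.38), with an unadjusted p of 0.005 in edgeR's fit over all genes, and it did not pass after Benjamini-Hochberg adjustment (edgeR, adjusted p = 0.918). With any 1 library left out it stayed between 0.73 and 0.98, and DESeq2 gave 0.85 with an adjusted p of 0.156, the lowest of the alternatives, whose adjusted p ran up to 1.

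Sfrp1, a decoy that binds Wnts outside the cell, was at 673.8, 696.3 and 998.2 CPM in Insm1-KO and at 632.1, 806.9 and 787.6 CPM in Insm1-Het. Its genotypes overlapped, and the interval of its log2 fold change of 0.09 ran from -0.36 to 0.54, the narrowest of the 27 genes. Sfrp2, another Wnt-binding decoy, had 5.43, 1.95 and 23.6 CPM in Insm1-KO and 5.77, 0.560 and 0.709 CPM in Insm1-Het. Insm1-KO replicate 3 was again the highest, and the log2 fold change of 2.13 (SE 1.44) was 0.66 without it. Its exons overlap Gm26771 on the other strand. Other antagonists were at or near 0: Sfrp4, Sfrp5 and Notum, the enzyme that removes the lipid of Wnts, had 0 counts throughout, Dkk1 had 13 counts in Insm1-KO replicate 2 alone, Dkk2 had 6 in Insm1-KO replicate 3, Dkk4 had 6 in Insm1-Het replicate 2, and Wif1 had 2 in Insm1-KO replicate 1.

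**Figure D2:**
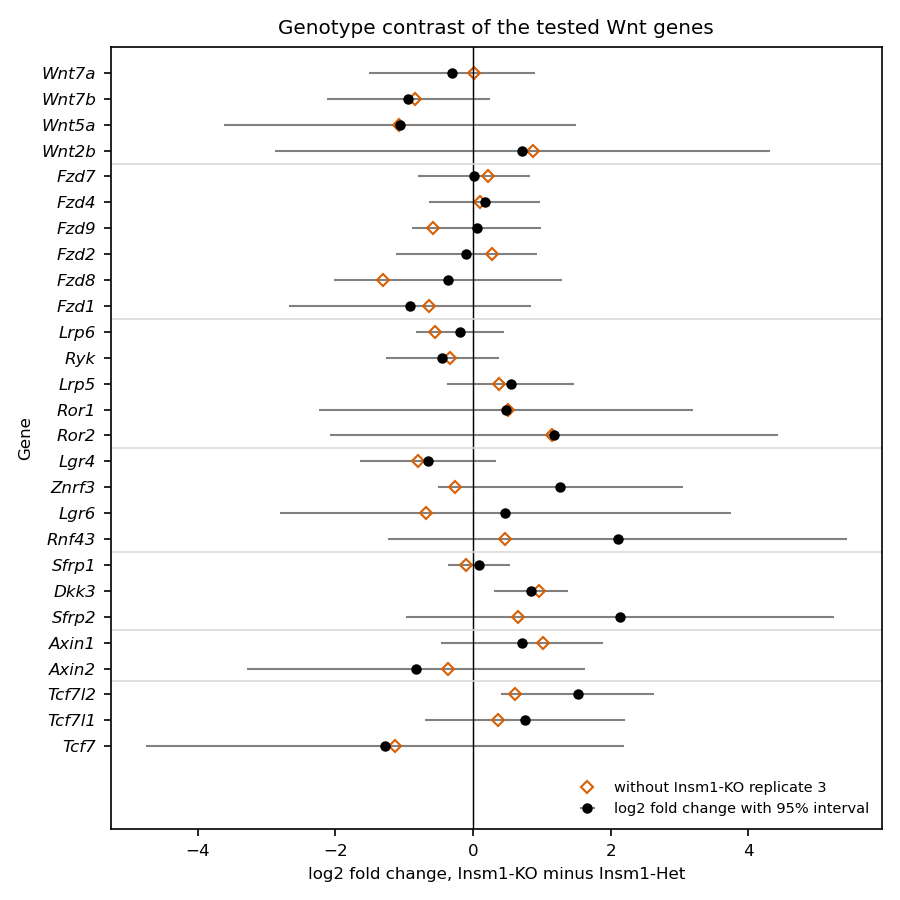
Log2 fold change of Insm1-KO minus Insm1-Het for the 27 tested Wnt genes, with the 95% interval from edgeR's fit over all genes as black points and grey lines, and the value without Insm1-KO replicate 3 as orange diamonds. The intervals of Dkk3 and Tcf7l2 lie above 0 and the other 25 include 0. For Znrf3, Rnf43, Sfrp2, Lgr6, Fzd8 and Tcf7l2 the diamond lies far to the left of the point.

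Axin1, a scaffold of the complex that degrades beta-catenin, had 59.95, 63.2 and 26.2 CPM in Insm1-KO and 32.5, 21.3 and 37.6 CPM in Insm1-Het. Insm1-KO replicates 1 and 2 were above all Insm1-Het libraries and replicate 3 was inside their range, with a log2 fold change of 0.71 (SE 0.55). Axin2, a scaffold that is also a widely used target gene of beta-catenin signalling, had 7.67, 9.63 and 1.67 CPM in Insm1-KO and 4.63, 5.42 and 23.7 CPM in Insm1-Het. The highest value was in Insm1-Het replicate 3 and the lowest in Insm1-KO replicate 3. The log2 fold change of -0.83 (SE 1.14) was 0.34 without Insm1-Het replicate 3, and its exons overlap Gm11670 on the other strand.

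Of the TCF/LEF factors, which carry beta-catenin to DNA, Tcf7l2 (chromosome 19, 55741820 to 55933654 on GRCm38) had 124, 52.7 and 327 CPM in Insm1-KO libraries, against 67.1, 53.5 and 54.8 CPM in Insm1-Het libraries. Insm1-KO replicates 1 and 3 were above all Insm1-Het libraries and replicate 2 was below them. Means were 168.0 ± 142 CPM in Insm1-KO and 58.5 ± 7.49 CPM in Insm1-Het (SD, n = 3 each). The log2 fold change was 1.52 (SE 0.52) with an unadjusted p of 0.0109 in edgeR's fit, and it did not pass after adjustment (edgeR, adjusted p = 0.920). Without Insm1-KO replicate 3 the log2 fold change was 0.61. In that library the supporting cell list summed to 2051 CPM and the ridge list to 2306 CPM, the highest sums of the 6 libraries, and the outer hair cell list was also highest there, at 8057 CPM. The members did not move together. Of the supporting cell list, Prox1 (739.6 CPM), Jag1 (567.7 CPM), Sox2 (199.4 CPM), Lfng (126 CPM) and Hey2 (43.6 CPM) were highest in that library. Gjb2 (4.22 CPM), Hey1 (106.9 CPM), Cdkn1b (47.8 CPM) and Fgfr3 (215.5 CPM) were lowest there. Of the ridge list, Tecta (843.9 CPM) and Tectb (1273 CPM) gave most of the sum. Fgf10 was highest in that library, at 182.7 CPM against 21.4 to 68.3 CPM in the other libraries. Otoa was at 0, and Epyc had 4.99 CPM there, against 93.7 CPM in Insm1-Het replicate 3. In Insm1-Het replicate 3 the ridge list summed to 2297 CPM, with Tecta at 977.7 CPM, and Tcf7l2 was at 54.8 CPM. The part of these cells in the level of Tcf7l2 was not tested.

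Tcf7l1, a factor that mostly represses in the absence of beta-catenin, had 28.1, 37.7 and 65.3 CPM in Insm1-KO and 12.8, 52.1 and 12.8 CPM in Insm1-Het, a log2 fold change of 0.75 (SE 0.67). The value became 0.355 without Insm1-KO replicate 3 and 1.77 without Insm1-Het replicate 2, and its exons overlap Gm15401 on the other strand. Tcf7 ranged from 1.55 to 2.47 CPM in Insm1-KO and from 0.158 to 11.2 CPM in Insm1-Het. Lef1, often raised where the pathway is active, had 30, 18 and 1 counts in Insm1-KO and 0, 0 and 3 in Insm1-Het, and fell below the filter. Its exons overlap Gm43352 on the other strand by 1208 bases, and reads of the overlap cannot be told apart.

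Counts per gene symbol cannot tell apart transcripts that begin at different starts of Tcf7l2. RefSeq gives promoter windows, from 250 bases before to 50 after a start, for 39 of the 56 Wnt genes on GRCm38.p6, and 48 windows in all. They were searched on both strands for 4 words of the TCF/LEF site, namely CTTTGAT and also CTTTGAA, besides CTTTGTT and also CTTTGTA. At least 1 word stood in 7 of the 48 windows, 14.6%, against 16.9% of all 32851 windows of the same length. Among the 17 tested genes with a window, the words were found only in Fzd7 and in the inner start of Tcf7l2. The other tested genes, Dkk3 and Wnt7b among them, had no window and were not searched. The windows of Tcf7l2 and Lgr4, whose values are given in full above, and of Fzd7, which holds a word, are shown on the plus strand, with a matched word in capitals. The Fzd7 match is CTTTGTT read on the minus strand, 130 bases before the start, and the match in Tcf7l2 ends 8 bases before the inner start. A match is only a match of letters, and no match says only that these words are not in this window.
Tcf7l2 outer start, chr19:55741560-55741859: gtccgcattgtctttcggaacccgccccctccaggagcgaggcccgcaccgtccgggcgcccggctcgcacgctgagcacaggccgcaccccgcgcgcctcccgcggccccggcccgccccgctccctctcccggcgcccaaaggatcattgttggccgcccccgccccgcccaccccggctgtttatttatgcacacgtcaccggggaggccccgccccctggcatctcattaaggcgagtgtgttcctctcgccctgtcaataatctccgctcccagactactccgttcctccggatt
Tcf7l2 inner start, chr19:55895071-55895370: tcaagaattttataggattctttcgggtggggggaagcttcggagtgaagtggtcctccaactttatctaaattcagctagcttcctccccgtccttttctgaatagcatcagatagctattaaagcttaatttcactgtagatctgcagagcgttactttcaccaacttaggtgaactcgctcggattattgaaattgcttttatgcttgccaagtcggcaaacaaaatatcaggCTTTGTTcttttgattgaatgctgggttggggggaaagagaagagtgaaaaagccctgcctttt
Lgr4, chr2:109917397-109917696: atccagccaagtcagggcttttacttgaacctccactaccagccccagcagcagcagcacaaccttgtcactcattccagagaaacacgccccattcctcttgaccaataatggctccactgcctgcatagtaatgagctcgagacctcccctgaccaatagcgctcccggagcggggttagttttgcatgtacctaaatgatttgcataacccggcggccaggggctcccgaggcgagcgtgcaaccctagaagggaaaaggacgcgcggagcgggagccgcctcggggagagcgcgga
Fzd7, chr1:59481897-59482196: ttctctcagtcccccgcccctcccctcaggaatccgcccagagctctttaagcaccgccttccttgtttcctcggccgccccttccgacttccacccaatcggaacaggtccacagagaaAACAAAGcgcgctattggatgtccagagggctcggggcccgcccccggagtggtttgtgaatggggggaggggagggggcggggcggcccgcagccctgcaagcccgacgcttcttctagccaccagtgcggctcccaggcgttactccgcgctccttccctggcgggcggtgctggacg

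The tested Wnt genes were put in order of level per length, as TPM (transcript share per base of the union of annotated exons). Sfrp1 was the highest, at 850.8 ± 164 TPM in Insm1-KO and 836 ± 104 TPM in Insm1-Het (SD, n = 3 each), and its range over the 6 libraries, 717 to 1040 TPM, lay above that of Dkk3, 216 to 489 TPM. From Dkk3 down, the ranges of each gene and the next overlapped at every step of the order. Fzd9 followed at 182 ± 108 TPM in Insm1-KO and 185 ± 19.6 TPM in Insm1-Het, then Fzd7, Fzd2, Ryk, Lrp6, Fzd4, Wnt7a and Tcf7l2, with means over the 6 libraries from 133.6 TPM for Fzd7 to 61.03 TPM for Tcf7l2. With the longest transcript as length, Tcf7l2 averaged 109.7 TPM and stood at rank 4 in place of 10. At the low end, Ror2, Lgr6, Rnf43 and Wnt2b averaged 3.25, 2.98, 2.66 and 2.45 TPM. By exon union the order thus had the secreted antagonists Sfrp1 and Dkk3 on top, then the Frizzled receptors Fzd9, Fzd7 and Fzd2. Other tested genes of these roles stood lower, with Sfrp2 at rank 19 and Fzd1 and Fzd8 at ranks 16 and 17. Among the first 10 there was 1 ligand, Wnt7a.

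**Figure D3:**
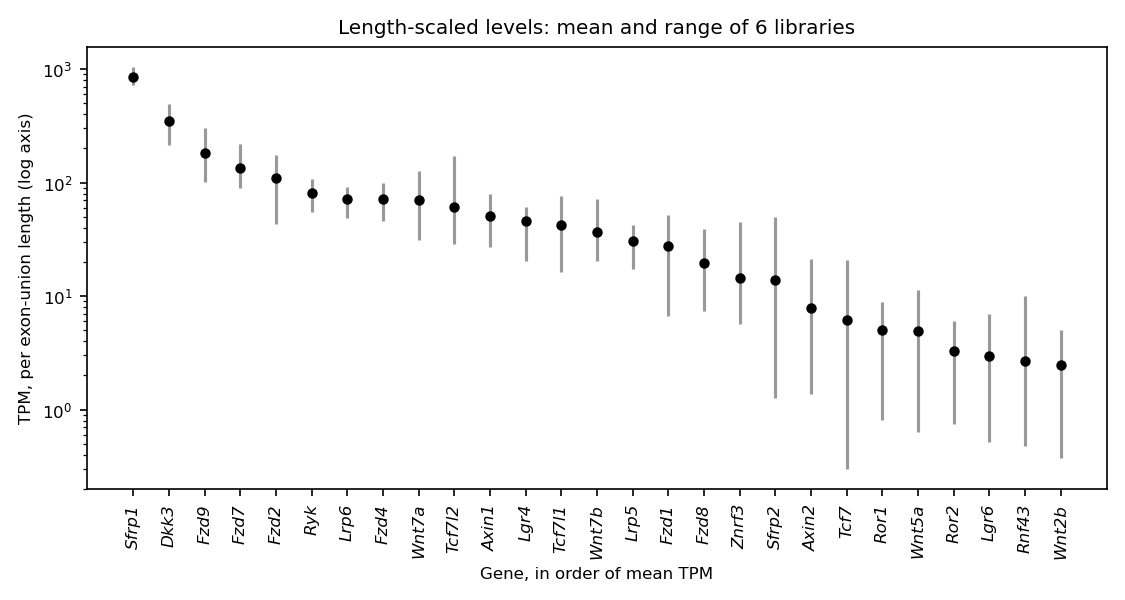
Mean (point) and range (line) over 6 libraries of the TPM of the 27 tested Wnt genes, per exon-union length and on a log axis, in falling order. The range of Sfrp1, 717 to 1040 TPM, is the only one with no overlap with the next gene.

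Libraries differed among themselves within a genotype by a median SD of 0.754 on the scale of log2(CPM + 0.5) over the 27 Wnt genes, against 0.71 over all tested genes. Dkk3 and Sfrp1 were the steadiest, with 0.219 and 0.261, and Lgr6 and Sfrp2 the least steady, with 1.57 and 1.55. Insm1-KO replicate 3 had the highest value for 10 of the 27 genes and Insm1-Het replicate 1 for 0 of them, while over all tested genes these libraries were highest for 24.5% and 11.9%. Insm1-KO replicate 3 also had the lowest value for 5 of the 27 genes and for 27.8% of all tested genes. Among the genes highest in Insm1-KO replicate 3 were Tcf7l2, Tcf7l1, Znrf3, Rnf43, Lgr6 and Sfrp2, whereas Axin1 was 26.2 and Axin2 1.67 CPM there, each the lowest value of the Insm1-KO libraries.

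**Figure D4:**
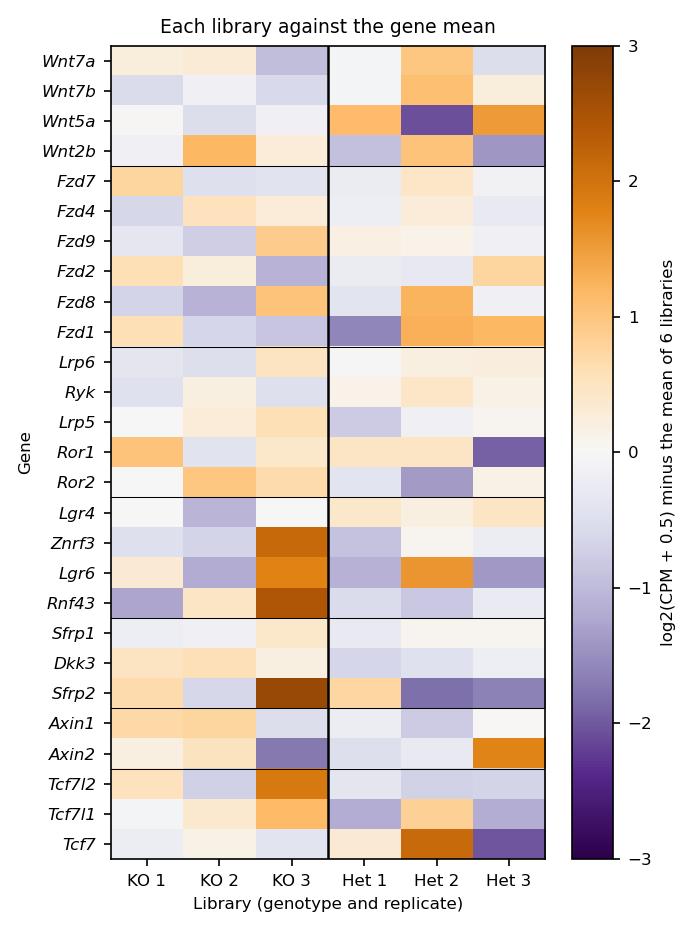
Difference of log2(CPM + 0.5) in each library from the gene's mean over 6 libraries, for the 27 tested Wnt genes in rows by role, with the 3 Insm1-KO libraries on the left and the 3 Insm1-Het libraries on the right. Orange is above and purple below the mean, and Insm1-KO replicate 3 is the strongest orange for Znrf3, Rnf43, Sfrp2 and Tcf7l2.

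The rest of the pathway was read from 5 lists of signalling, secretion, polarity, modulator and target genes, which hold 61 further genes of the tables. Of these, 48 were tested and 0 passed in edgeR's fit after adjustment over all genes; 4 had an unadjusted p under 0.05, or 8.33% of those tested, against 5.34% of all genes. The 4 were all higher in Insm1-KO, and of all genes 3.19% were higher at that level. Of the 48 genes, 31 had a positive and 17 a negative log2 fold change, against 50.9% and 49.1% of all tested genes. Lgr5, an R-spondin receptor and Wnt target that also marks cochlear supporting cells, had 215.9, 197.5 and 392.9 CPM in Insm1-KO and 186.0, 128.7 and 169.6 CPM in Insm1-Het. Its groups did not overlap, and the log2 fold change of 0.74 (SE 0.31) was 0.37 without Insm1-KO replicate 3. Celsr2, a polarity cadherin, had 205.8, 143.7 and 293.4 CPM in Insm1-KO and 131.7, 115.6 and 107.8 CPM in Insm1-Het, also without overlap, with a log2 fold change of 0.86 (SE 0.31).

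Apc2, a relative of the tumour suppressor Apc, had 16.4, 12.4 and 226 CPM in Insm1-KO and 9.34, 5.88 and 26.5 CPM in Insm1-Het. Its log2 fold change of 2.61 (SE 0.98) was 0.06 without Insm1-KO replicate 3, and only 10 bases of its exons overlap 2310011J03Rik on the other strand. Pygo2, a coactivator of beta-catenin, had 24.2, 72.3 and 72.03 CPM in Insm1-KO and 13.9, 22.8 and 24.8 CPM in Insm1-Het, a log2 fold change of 1.45 (SE 0.59). Without overlap of the genotypes there were 3 pathway genes higher in Insm1-KO, Lgr5, Celsr2 and Ankrd6, and 2 lower, Dvl2 and Prickle2, of which the last 3 were chosen after their values were seen. These are 3 and 2 of 48, against 5.08% and 6.1% of all tested genes.

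The genes of each list with the highest CPM are given next. Gsk3b, the kinase that marks beta-catenin for degradation, averaged 1258 ± 81.1 CPM in Insm1-KO and 1185 ± 42.8 CPM in Insm1-Het (SD, n = 3 each), and the log2 fold change had limits of -0.26 and 0.43. Ctnnb1, beta-catenin itself, had 883, 790.2 and 432.8 CPM in Insm1-KO and 879.8, 919 and 933 CPM in Insm1-Het, with limits of -0.89 and 0.14 on the log2 fold change, and Insm1-KO replicate 3 was the lowest. Its exons overlap Ulk4 on the other strand. Celsr1, a polarity cadherin, averaged 279 ± 44.3 CPM in Insm1-KO and 326 ± 53.6 CPM in Insm1-Het, and Daam1, a formin of the polarity branch, 300.9 ± 120.5 CPM in Insm1-KO and 350.2 ± 94.9 CPM in Insm1-Het. Nkd1, a feedback inhibitor and target, was at 78.2 ± 35.6 CPM in Insm1-KO and 51.4 ± 32.5 CPM in Insm1-Het, and Tspan12, a partner of Fzd4, at 94.7 ± 52.97 CPM in Insm1-KO and 86.2 ± 30.6 CPM in Insm1-Het. For secretion of Wnts, Wls, the carrier that brings them to the cell surface, was at 4.68 ± 6.86 CPM in Insm1-KO and 5.96 ± 6.17 CPM in Insm1-Het, and Porcn, the enzyme that adds their lipid, at 8.20 ± 6.41 CPM in Insm1-KO and 4.01 ± 4.81 CPM in Insm1-Het. The test was passed by 0 of these 8.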

How the data were processed

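Per the labels' protocols, ribosomal RNA was removed and the cDNA amplified before sequencing. The authors deposited 1 table of raw read counts for each library, in whole numbers and by gene symbol. Trimmomatic, STAR, HTSeq and the mouse build GRCm38 (mm10) are named in the submitters' processing notes; versions, annotation, strand setting and treatment of multiply mapped reads: not given in the sources used here. The filterByExpr function of edgeR, with a minimum count of 10 and a minimum total of 15, kept 11714 genes, and those removed held 0.274% of the counts. After TMM scaling, Insm1-KO was compared with Insm1-Het by the quasi-likelihood test of edgeR 4.0.16, with no other term in the model, and p-values were adjusted by Benjamini-Hochberg over all tested genes (threshold 0.05). An SE is the log2 fold change divided by the square root of F. TPM used exon unions of GENCODE M21, with a length for 22873 symbols. Every tested Wnt gene was given, with its 6 values where the mean was at least 10 CPM, the genotypes did not overlap or the unadjusted p was under 0.05; a few others got their values for their spread. Of each pathway list, the 2 genes with the highest CPM and those with an unadjusted p under 0.05 were named. The members and lists were chosen with earlier results of these data known. Some Frizzled genes are not reported here. Alternatives were DESeq2 1.42.0, limma-voom (limma 3.58.1), the newer quasi-likelihood form, other scalings and filters, a replicate block, and leaving out each library.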

Additional observations from a re-analysis of the deposited data

How the results depend on the processing

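Across 11714 tested genes edgeR passed 0, against 26 by DESeq2, 67 with no filter, 1 in the newer form of the fit and 1 with the replicate block. With no filter, 1 Wnt gene passed, Tcf7l2 (log2 fold change 1.53, edgeR adjusted p = 0.0131), and 1 further pathway gene, Apc2 (2.62, edgeR adjusted p = 0.00324); in the other alternatives 0 of either passed, and over these alternatives the adjusted p of Tcf7l2 ran from 0.236 to 1, and that of Apc2, where given, from 0.544 to 1. The unfiltered fit tested 15648 genes with 6451 degrees of freedom for Tcf7l2, against 13.6 in the filtered fit. Leaving out 1 library gave 0 passing genes each time, 2 to 4 Wnt genes without overlap and higher in Insm1-KO, 3 to 5 lower, and a median log2 fold change from 0.00893 to 0.34, the highest without Insm1-Het replicate 2; fewer libraries overlap less often by construction. In these fits 29 to 31 Wnt genes were kept, and of all genes 8.47% to 10.9% were without overlap and higher and 10.6% to 13.5% lower. Of the 306 values of 39 named genes under the other alternatives, 296 kept their direction and side of the threshold. The sign turned for Fzd7 (-0.0353 by limma-voom, -0.0288 with library size only, -0.08 with the replicate block), Fzd9 (-0.0936, -0.0415 and -0.135 under the same settings), Tcf7 (0.17 by limma-voom) and Tspan12 (-0.0015 by limma-voom). With 1 library left out the sign turned in 24 of 234 values, with log2 fold changes from -1.26 to 0.34 for Axin2, -0.45 to 0.34 for Fzd2, -0.0606 to 0.44 for Fzd4, -0.50 to 0.24 for Fzd7, -1.31 to 0.32 for Fzd8, -0.59 to 0.36 for Fzd9, -0.69 to 2.55 for Lgr6, -0.11 to 0.19 for Sfrp1, -1.83 to 0.37 for Tcf7, -0.57 to 0.23 for Wnt7a, -0.27 to 1.71 for Znrf3, -3.0 to 0.93 for Wls, -0.53 to 0.0539 for Daam1 and -0.32 to 0.51 for Tspan12. Same-numbered libraries did not deviate together (correlations of 0.0073 to 0.0144), so the replicate block, under which 0 Wnt genes passed and their median log2 fold change was 0.0739, pairs numbers only. The cause of these turns was not tested. Of the 27 Wnt genes, 11 turned sign in at least 1 fit with a library left out, 13 more moved by over 1.5 times and 3 (Axin1, Dkk3 and Ror2) did neither. With the longest transcript in place of the exon union the same 10 genes were highest by TPM, in another order. The SE of the 27 Wnt genes ran from 0.21 to 1.67, and 5 of their 95% intervals lay within 1 of 0 on the log2 scale.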
